A study of Mus musculus with 14 samples.

Results

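The matrix metalloproteinases (MMPs), the ADAMTS proteases and the tissue inhibitors of metalloproteinases (TIMPs) were examined as 1 group of genes in ChIP-seq peak lists of mouse kidneys. The members were all RefSeq protein-coding genes of the mouse assembly GRCm38 whose symbol is Mmp, Timp or Adamts followed directly by a digit. These were 46 of 21883 protein-coding genes on the autosomes, X and Y, with 23 MMP, 4 TIMP and 19 ADAMTS genes. H3K9cr (crotonylation of lysine 9 of histone H3) and H3K9ac (acetylation of the same lysine) were mapped in whole kidneys of wild-type (WT) mice and of mice with a global, CRISPR-made deletion of ACSS2 (ACSS2-/-), an enzyme that makes crotonyl-CoA and acetyl-CoA. Each genotype had control kidneys and kidneys after unilateral ureteric obstruction (UUO), an operation that blocks 1 ureter and leads to fibrosis. There were 14 libraries, of which 8 were of H3K9cr (pairs from every group) and 6 of H3K9ac (pairs from WT UUO and ACSS2-/- UUO, single libraries from WT control and ACSS2-/- control). The labels give neither the strain, the age nor the day after the operation. They do not say that replicates were separate animals, so a p-value here measures the spread between these libraries, which may be technical.

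MMPs are zinc-dependent endopeptidases that cut collagens, gelatin, laminin and other matrix proteins, and ADAMTS proteases cut proteoglycans, trim procollagens or process secreted factors such as von Willebrand factor. TIMPs bind the catalytic site of these enzymes and block it, and Timp3 differs from the other inhibitors in that it is held in the matrix and also inhibits several ADAM and ADAMTS proteases. In kidney fibrosis, matrix builds up between the tubules, and the balance of proteases and inhibitors is known to bear on it. H3K9ac and H3K9cr both sit at the start of active genes and at active enhancers.

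The lists hold only the positions of peaks, so the value given for a gene is the number of base pairs (bp) covered by peaks in its locus, meaning the gene body with 3 kb on either side of its ends. Covered length is not signal height, and the read depth of the libraries is unknown. A list held between 15988 and 45014 peaks that covered between 17.7 and 64.6 Mb, and 3 of the 4 H3K9ac lists of UUO kidneys were the shortest. The fourth, replicate 2 of ACSS2-/- UUO, was next by number of peaks but stood apart from these, with 24571 peaks over 30.9 Mb. Whole kidneys were used, and peak coverage at the markers of some cell types differed between control and UUO kidneys. The 5 proximal tubule markers had H3K9cr peaks over 17.6 to 34.2 kb in the 4 control libraries and over 0.55 to 4.10 kb in the 4 UUO libraries, while 1 of 8 leukocyte markers had a peak in every control library and 6 to 8 of them in the UUO libraries, with 0.389 to 4.81 kb against 11.8 to 34.0 kb in sum. Ptprc, Tyrobp, Cd3e, Adgre1 and the C1q genes had no H3K9cr peak in any control library. The 6 stroma markers had 2.14 to 5.43 kb in control and 2.45 to 10.5 kb in UUO kidneys, the 4 injured tubule markers 0.941 to 2.46 kb and 2.05 to 8.87 kb, the 4 distal nephron markers 21.8 to 37.0 kb and 9.57 to 13.2 kb, and the 4 endothelial markers 5.52 to 15.9 kb and 4.47 to 11.8 kb. In such bulk samples fewer cells of a type and less of a mark per cell cannot be told apart, and the part of cell makeup in the values below was not tested.

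The start regions of 6 members carried peaks whose coverage is followed below. They are the members whose H3K9cr coverage in UUO and control kidneys passed the test or did not overlap, as far as they had a start region in the RefSeq table and a peak on it, and Timp1. Each sequence runs 5′ to 3′ on the strand of the gene, from 250 bases before to 50 after the start site (RefSeq, GRCm38.p6), and capitals mark the letters AGGAAG, the core to which ETS factors of the PEA3 group bind, or their complement CTTCCT.
Timp2: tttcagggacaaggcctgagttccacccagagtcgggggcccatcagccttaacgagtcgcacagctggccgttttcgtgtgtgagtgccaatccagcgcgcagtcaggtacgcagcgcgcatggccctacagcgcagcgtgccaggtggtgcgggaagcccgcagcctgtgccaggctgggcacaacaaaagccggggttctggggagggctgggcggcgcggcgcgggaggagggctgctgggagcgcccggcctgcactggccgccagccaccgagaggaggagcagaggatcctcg
Timp3: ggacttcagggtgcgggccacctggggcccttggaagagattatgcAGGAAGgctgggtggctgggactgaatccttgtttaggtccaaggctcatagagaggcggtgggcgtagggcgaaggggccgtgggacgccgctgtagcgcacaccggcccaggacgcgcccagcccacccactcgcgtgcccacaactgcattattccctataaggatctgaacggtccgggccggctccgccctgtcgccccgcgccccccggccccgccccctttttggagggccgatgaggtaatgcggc
Timp1: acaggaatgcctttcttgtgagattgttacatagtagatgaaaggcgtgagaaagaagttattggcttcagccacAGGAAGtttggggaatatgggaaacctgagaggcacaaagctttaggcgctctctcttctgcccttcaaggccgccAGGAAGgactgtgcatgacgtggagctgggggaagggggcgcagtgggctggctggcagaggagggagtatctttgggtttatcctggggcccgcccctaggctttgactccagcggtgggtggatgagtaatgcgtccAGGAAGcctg
Mmp14: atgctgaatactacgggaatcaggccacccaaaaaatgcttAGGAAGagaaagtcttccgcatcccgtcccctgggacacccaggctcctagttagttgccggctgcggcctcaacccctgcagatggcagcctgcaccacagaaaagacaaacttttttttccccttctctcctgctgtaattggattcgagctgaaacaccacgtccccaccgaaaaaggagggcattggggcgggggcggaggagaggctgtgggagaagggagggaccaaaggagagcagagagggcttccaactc
Adamts9: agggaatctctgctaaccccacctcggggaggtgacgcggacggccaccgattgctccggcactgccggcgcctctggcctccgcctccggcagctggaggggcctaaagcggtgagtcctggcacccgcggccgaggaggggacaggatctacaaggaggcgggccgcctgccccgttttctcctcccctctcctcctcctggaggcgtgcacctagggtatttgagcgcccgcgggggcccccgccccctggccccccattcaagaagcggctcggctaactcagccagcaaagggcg
Adamts12: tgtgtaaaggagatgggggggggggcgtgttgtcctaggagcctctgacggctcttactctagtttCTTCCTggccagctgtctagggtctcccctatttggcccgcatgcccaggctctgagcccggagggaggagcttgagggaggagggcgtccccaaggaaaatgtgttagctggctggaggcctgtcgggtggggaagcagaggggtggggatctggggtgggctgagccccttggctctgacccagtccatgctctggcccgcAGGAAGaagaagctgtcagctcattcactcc
They lie at chr11:118355362-118355661 (Timp2, minus strand), chr10:86300162-86300461 (Timp3, plus), chrX:20869916-20870215 (Timp1, plus), chr14:54431348-54431647 (Mmp14, plus), chr6:92943485-92943784 (Adamts9, minus) and chr15:11064523-11064822 (Adamts12, plus).

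All 300 bases of the Timp2 start region lay under a peak in all 14 libraries. The Timp3 start region was fully covered in 7 of 8 H3K9cr libraries and by 69 bases in the other one, replicate 2 of ACSS2-/- UUO. H3K9ac covered it in both control libraries and in replicate 1 of WT UUO, and 0 bases of it in the remaining 3 UUO libraries. The Timp1 start region was touched in 3 H3K9cr libraries, by 188 bases in replicate 1 of ACSS2-/- control and by 300 and 270 bases in the WT UUO libraries, and in no H3K9ac library. The letters AGGAAG occurred at position -204 from the start site in Timp3, at -209 in Mmp14 and at -175, -99 and 40 in Timp1. Adamts12 had them at position 19 and the complement at -184, and Timp2 and Adamts9 had neither. Over all 21262 start regions of this length 34.4% held AGGAAG on either strand, against 16 of the 35 start regions of members. The AP-1 letters TGANTCA, known from the promoters of several MMP genes, were held by 6.99% of all and by 8 of 35 member start regions, and the TATA box letters TATAAA by 12.6% of all and by 11 of 35, both searched on both strands. Of the 46 members 32 had an entry in the table, and these matches are a description of letters only.

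Peaks were found at 36 of the 46 members. The other 10 had no peak of either mark in any library, which is 21.7% of the members, a lower share than over all protein-coding genes (27.0%). They were Mmp1a, Mmp1b, Mmp8 and Mmp13 of the collagenase group, the stromelysins Mmp3 and Mmp10, the macrophage elastase Mmp12, and Mmp21, Timp4 and Adamts19. Of these, 7 lie in the run of 10 MMP genes on chr9 between Mmp13 and Mmp7 (chr9:7272514-7699585), where only Mmp27, Mmp20 and Mmp7 had a peak. At the other end, 18 members (39.1%) had a peak in all 14 libraries, against 51.8% of protein-coding genes. By family these were 6 of 23 MMP, 2 of 4 TIMP and 10 of 19 ADAMTS genes. Such a peak need not lie at the start of the member. At Mmp24 and Adamts13 no base of the start region was covered in any library. Their constant regions lay across the other end of the gene, with an end of Eif6 or Cacfd1 in the window. The constant region of Mmp19 (chr10:128803204-128809393) lay beyond the gene, with an end of Tmem198b in the window. All 36 had a peak in at least 2 libraries and entered the tests, and a gene kept by this filter can have passed it through the group in which it is high.

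A library had peaks at 27 to 32 members for H3K9cr and at 21 to 31 for H3K9ac. Merged over libraries, the peaks formed 152 regions, of which 20 were present in all 14 libraries, at 18 members, and 66 in a single library. No region was present in all 4 H3K9cr libraries of UUO kidneys and absent from all 4 of controls. The reverse was true of 1 region of 2423 bp, beyond the end of Adamts6 at higher coordinates (chr13:104497488-104499910), which no H3K9ac library carried either.

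**Figure D1:**
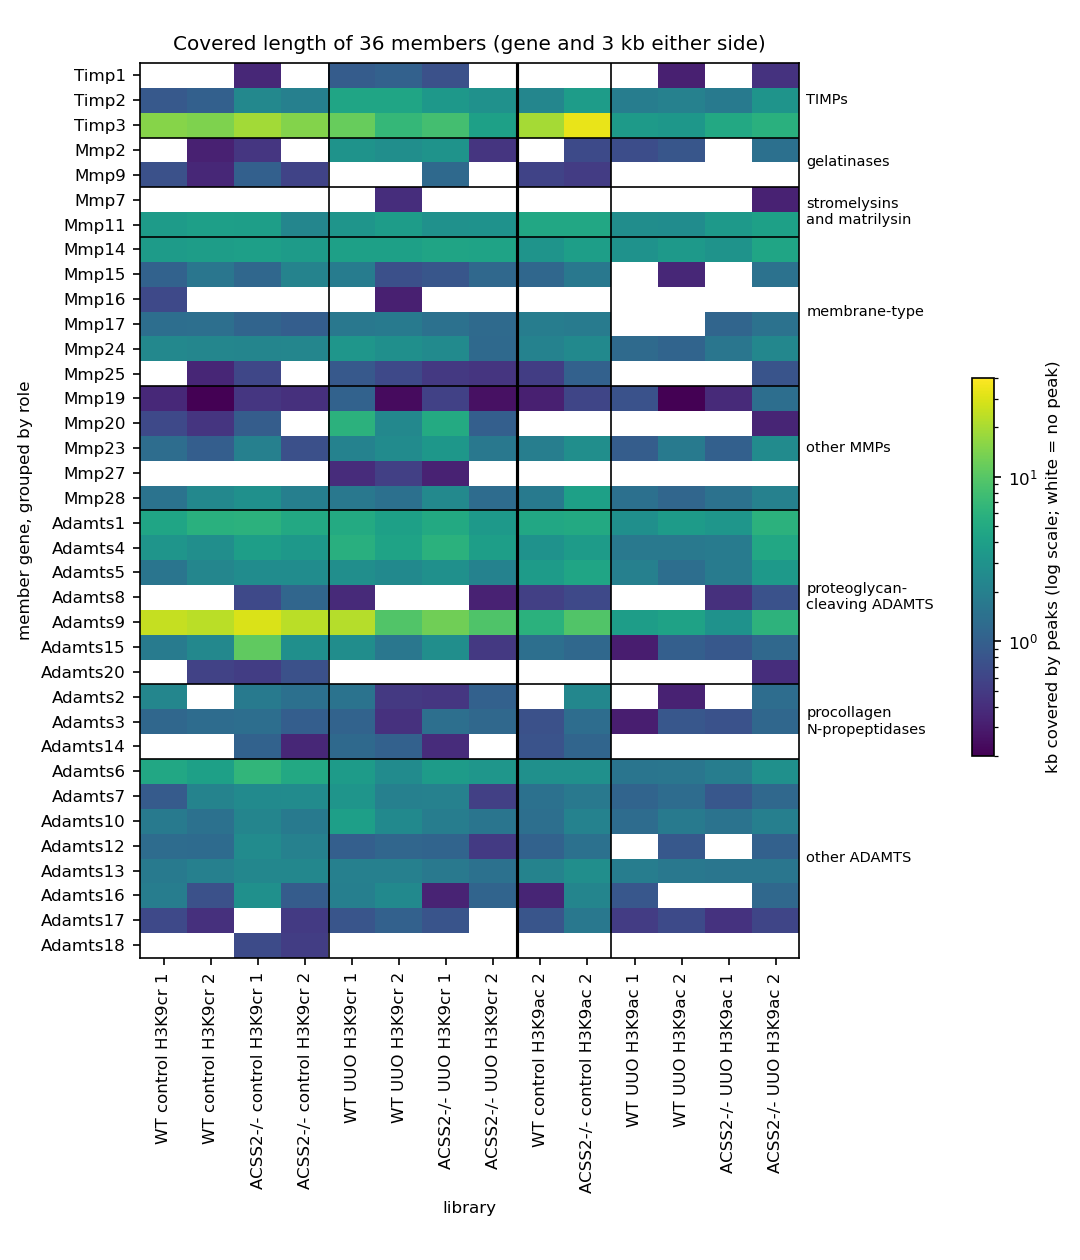
Covered length in kb (colour, log scale, white for no peak) of the 36 members with a peak (rows, grouped by role) in the 14 libraries (columns, H3K9cr left and H3K9ac right of the thick line, control before UUO). Timp3 and Adamts9 carried the longest coverage, up to 33880 and 29828 bp.

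The first comparison asked how H3K9cr at the members differed between UUO and control kidneys of both genotypes. Timp2 and the proteases Mmp2 and Mmp20 rose, and Timp3 and Adamts6 fell. Adamts18 was also called lower, but it entered the test only through the 2 control libraries in which it had a peak, so its call is a description. The 3 members that rose stood against 2.34% of all 15268 genes tested, and the 3 called lower, Adamts18 included, against 12.7% (limma across all genes, adjusted p under 0.05). On the log2 scale of covered bp plus 500, which understates changes of short coverage, the median difference was -0.10 over the 36 members and -0.16 over all genes. By family the median difference was 0.21 over 15 MMP genes, of which 10 were positive and 2 rose, and -0.22 over 18 ADAMTS genes, of which 5 were positive and 2 were called lower, 1 of them Adamts18. This direction of the ADAMTS genes depends on scaling, since it was 0.13, with 11 of 18 positive, when each library was divided by its total covered length, a step that moved the median of all genes from -0.16 to 0.17. With this scaling the calls were 8 higher and 1 lower, with Adamts4, Adamts10, Mmp14, Mmp17 and Mmp23 added to the members that rose and Timp3 alone falling. Over all genes the calls then were 1171 higher and 841 lower, against 357 and 1939. Leaving out 1 library gave 1 to 8 calls, with 1 to 3 without either WT control, either ACSS2-/- control or replicate 2 of WT UUO of H3K9cr, or without either H3K9ac library of WT UUO.

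Among inhibitors, Timp2, which besides blocking MMPs takes part in activating pro-Mmp2 at the cell surface, had H3K9cr over 876 and 1008 bp in WT control, 2386 and 2021 bp in ACSS2-/- control, 4476 and 4467 bp in WT UUO and 3366 and 2894 bp in ACSS2-/- UUO. Every UUO library lay above every control library. The mean was 3801 ± 798 bp in UUO and 1573 ± 745 bp in control (SD, n = 4 each), a log2 difference of 1.11 with a standard error (SE) of 0.153 (limma, adjusted p = 0.00248). This call held without any single library, with a highest adjusted p of 0.0150, and was lost only when coverage was counted within 1 kb of the start site, where the difference was 0.33 (adjusted p = 0.159). The longest peak was wider in UUO than in control in WT kidneys only, as the ACSS2-/- libraries overlapped. Further peaks lay inside the gene. The longest H3K9cr peak measured 876 and 1008 bp in WT control and 3045 and 2037 bp in WT UUO, and 1565 and 1212 bp in ACSS2-/- control and 1170 and 1842 bp in ACSS2-/- UUO. The region over the start (chr11:118353154-118356294) was present in all 14 libraries, while a region between 5669 and 7320 bp from the gene's start (chr11:118348092-118349742) was present in 2 of 4 H3K9cr control libraries, both ACSS2-/-, in 4 of 4 H3K9cr UUO libraries and in none of 6 H3K9ac libraries.

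Timp3 ran the other way. Its locus had H3K9cr over 15192 and 14351 bp in WT control, 19209 and 14903 bp in ACSS2-/- control, 11685 and 6861 bp in WT UUO and 8195 and 4089 bp in ACSS2-/- UUO. All UUO libraries lay below all control libraries, with means of 7708 ± 3155 and 15914 ± 2224 bp (SD, n = 4 each). The log2 difference was -1.08 (SE 0.237, limma, adjusted p = 0.0173). Without replicate 1 or 2 of WT control, replicate 1 of ACSS2-/- control or replicate 2 of WT UUO the adjusted p was between 0.0565 and 0.0784, and with the number of peaks in place of covered length the difference was -0.08 (adjusted p = 1), so that covered length and not the number of peaks differed. The longest single peak at Timp3 spanned 10030 to 12341 bp in the 4 H3K9cr control libraries and 2056 to 3784 bp in the 4 UUO libraries. Within 3 kb of its ends 6000 bp were covered in each of the 4 control libraries and 3269 to 4367 bp in the UUO libraries. The merged region over its start (chr10:86293789-86311776, 17988 bp) was present in all 14 libraries. Timp3 lies inside the gene Syn3, so peaks on it are also peaks on Syn3.

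Timp1, an inhibitor known to be induced in injured kidney, had no H3K9cr peak in WT control, 364 and 0 bp in ACSS2-/- control, 938 and 1037 bp in WT UUO and 751 and 0 bp in ACSS2-/- UUO. Replicate 2 of ACSS2-/- UUO was at 0, as were 3 of the 4 control libraries, so the groups overlapped. The log2 difference was 0.92 (SE 0.350, limma, adjusted p = 0.118). For H3K9ac the locus had 316 bp in replicate 2 of WT UUO, 431 bp in replicate 2 of ACSS2-/- UUO and no peak in the other 4 libraries. Timp1 lies within Syn1, and its single region (chrX:20869686-20871007) covered its own start.

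**Figure D2:**
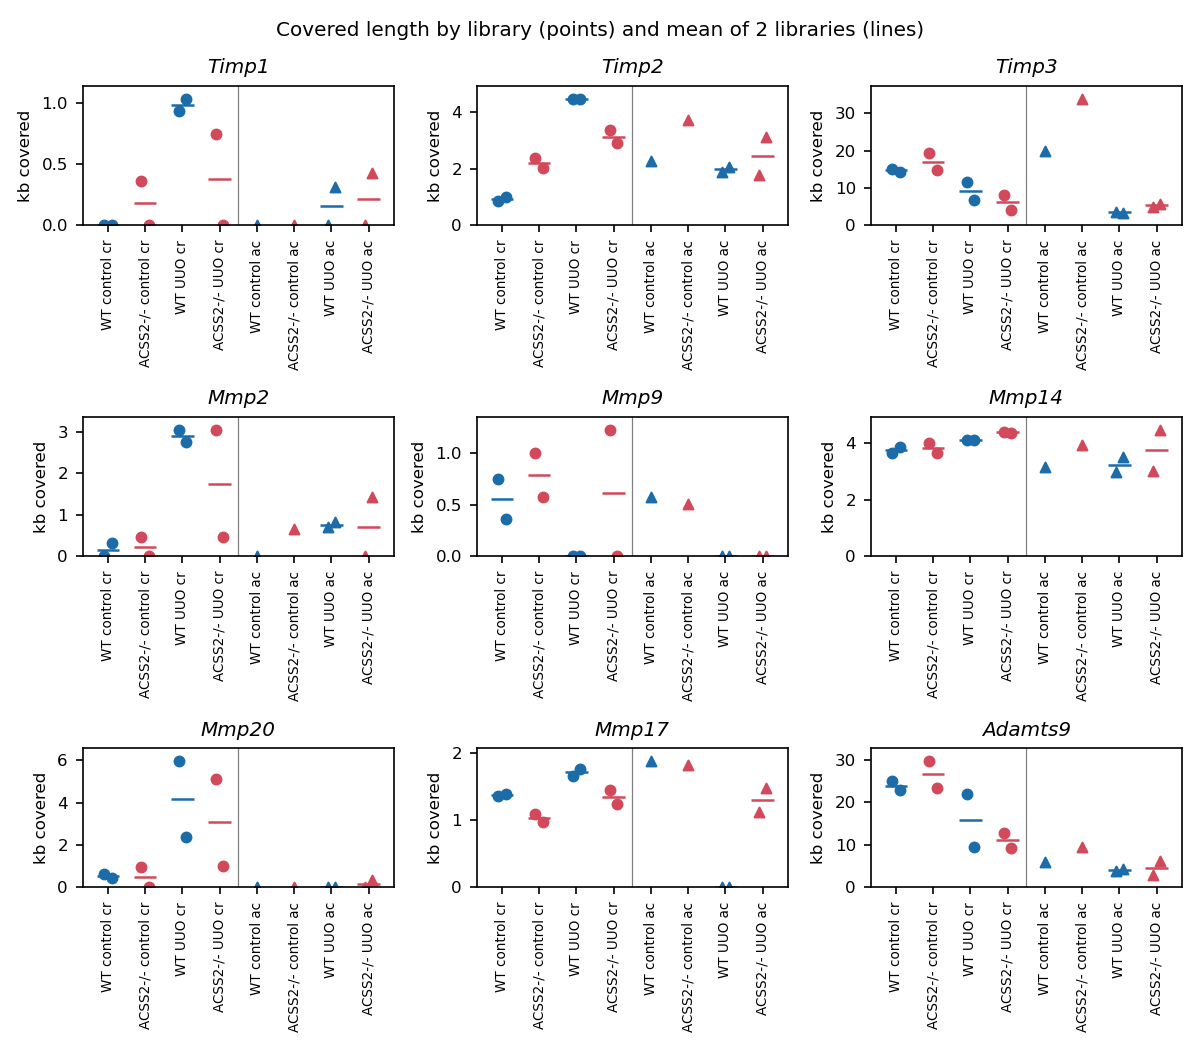
Covered length in kb of 9 members in each library (circles for H3K9cr, triangles for H3K9ac, blue for WT and red for ACSS2-/-), with lines at the mean of 2 libraries. Timp2 H3K9cr was at 2894 bp or more in every UUO library and at 2386 bp or less in every control library, Timp3 fell with UUO for both marks, and Mmp17 H3K9ac was at 0 in both WT UUO libraries only.

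Of the gelatinases, which degrade denatured collagen and basement membrane collagen, Mmp2 had H3K9cr over 0 and 324 bp in WT control, 467 and 0 bp in ACSS2-/- control, 3048 and 2756 bp in WT UUO and 3043 and 454 bp in ACSS2-/- UUO. Replicate 2 of ACSS2-/- UUO lay among the controls and the other 3 UUO libraries far above them. The log2 difference was 1.90 (SE 0.512, limma, adjusted p = 0.0378). The call held in 5 of 14 fits that left out 1 library, with adjusted p up to 0.129 in the others (those without any 1 of the 4 control libraries, of either WT UUO library, of replicate 1 of ACSS2-/- UUO, or of either H3K9ac library of WT UUO). Most of the coverage lay at the end of Mmp2 at higher coordinates (chr8:92853374-92856621), where the neighbouring gene Lpcat2 has an end. A peak of 1342 bp inside the gene (chr8:92846269-92847610) added to that of 1701 bp at the end in replicate 1 of ACSS2-/- UUO, with 1 H3K9ac library of UUO in the same region, and a peak of 341 bp near the other end was present in 1 library. Without bases within 1 kb of the ends of other protein-coding genes the difference was 1.21 (adjusted p = 0.0693). Mmp9 had 751 and 363 bp in WT control, 1005 and 577 bp in ACSS2-/- control, 0 in both WT UUO libraries and 1231 and 0 bp in ACSS2-/- UUO, and the region shared by 7 libraries (chr2:164938021-164939504) lay outside the gene. The log2 difference was -0.75 (SE 0.351, limma, adjusted p = 0.198).

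Mmp20, an enamel protease of the tooth, had H3K9cr over 638 and 454 bp in WT control, 946 and 0 bp in ACSS2-/- control, 5978 and 2366 bp in WT UUO and 5132 and 990 bp in ACSS2-/- UUO. The lowest UUO library stood just above the highest control library. The log2 difference was 1.91 (SE 0.491, limma, adjusted p = 0.0321), and the call held in 6 of 14 fits without 1 library, with adjusted p up to 0.109 without either WT control library, replicate 2 of ACSS2-/- control, either WT UUO library, replicate 1 of ACSS2-/- UUO or either H3K9ac library of WT UUO. None of its 7 regions touched the start of Mmp20. They began 21379 bp into the gene, and a region of 5198 bp beyond the gene (chr9:7676944-7682141), in the space before Mmp7, was present in 3 UUO libraries and in no control library.

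Mmp7 (matrilysin), which epithelial cells secrete, had a peak in 2 of 14 libraries, 401 bp of H3K9cr in replicate 2 of WT UUO and 334 bp of H3K9ac in replicate 2 of ACSS2-/- UUO. Mmp14, the membrane-type enzyme that activates pro-Mmp2, was covered in every library. Its H3K9cr coverage was 3652 and 3837 bp in WT control, 4000 and 3643 bp in ACSS2-/- control, 4098 and 4091 bp in WT UUO and 4377 and 4355 bp in ACSS2-/- UUO. The UUO libraries all lay above the controls, by a mean of 447 bp. Part of this was a region beyond the gene (chr14:54442913-54443573), present in 2 H3K9cr UUO libraries and in 0 controls. Mrpl52 has an end in the window. The longest single H3K9cr peak overlapped between the groups, with 2630 to 4000 bp in control and 3655 to 4091 bp in UUO. The log2 difference of 0.14 (SE 0.126, limma, adjusted p = 0.509) did not pass, and it was 0.53 (adjusted p = 0.0202) with scaling by the covered length of the library.

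Among ADAMTS genes the longest coverage was at Adamts9, a proteoglycan-cleaving protease. H3K9cr covered 24969 and 22915 bp in WT control, 29828 and 23311 bp in ACSS2-/- control, 22091 and 9523 bp in WT UUO and 12811 and 9367 bp in ACSS2-/- UUO. All UUO libraries lay below the controls, with means of 13448 ± 5977 and 25256 ± 3175 bp (SD, n = 4 each), and the log2 difference was -0.96 (SE 0.293, limma, adjusted p = 0.0580). Within 3 kb of its ends Adamts9 had 3027 to 3329 bp in control and 2852 to 3407 bp in UUO libraries, so the lower coverage was in the interior of the gene. Adamts12, which cuts cartilage matrix proteins, had 1266 to 2559 bp in control and 488 to 1147 bp in UUO, a log2 difference of -0.67 (SE 0.403, limma, adjusted p = 0.323). Adamts6 had 4042 to 6539 bp in control and 2564 to 3701 bp in UUO. It fell by 0.56 on the log2 scale (SE 0.159, limma, adjusted p = 0.0469), a call that held in 3 of 12 alternative settings, with -0.16 under scaling by covered length (adjusted p = 0.369), and in 5 of 14 fits without 1 library, with adjusted p up to 0.158 without any H3K9cr library but replicate 1 of WT UUO, or without either H3K9ac library of WT UUO. The region beyond its end named above, present in the controls alone, made up part of this difference.

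Adamts18 had 668 and 526 bp of H3K9cr inside the gene in the 2 ACSS2-/- control libraries and no peak of either mark in the other 12 libraries. Its log2 difference was -0.57. Counted without a model, 3 members had all 4 UUO libraries above all 4 controls (Mmp20, Timp2 and Mmp14), against 2.46% of all genes tested, and 4 had them below (Adamts9, Timp3, Adamts6 and Adamts12), against 17.2%. Any gene split in this way must have an exact two-sided permutation p of 0.0286 over the 70 arrangements, the smallest they allow. This p, before any correction for 36 members, therefore restates the split and is no further test of these genes.

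**Figure D3:**
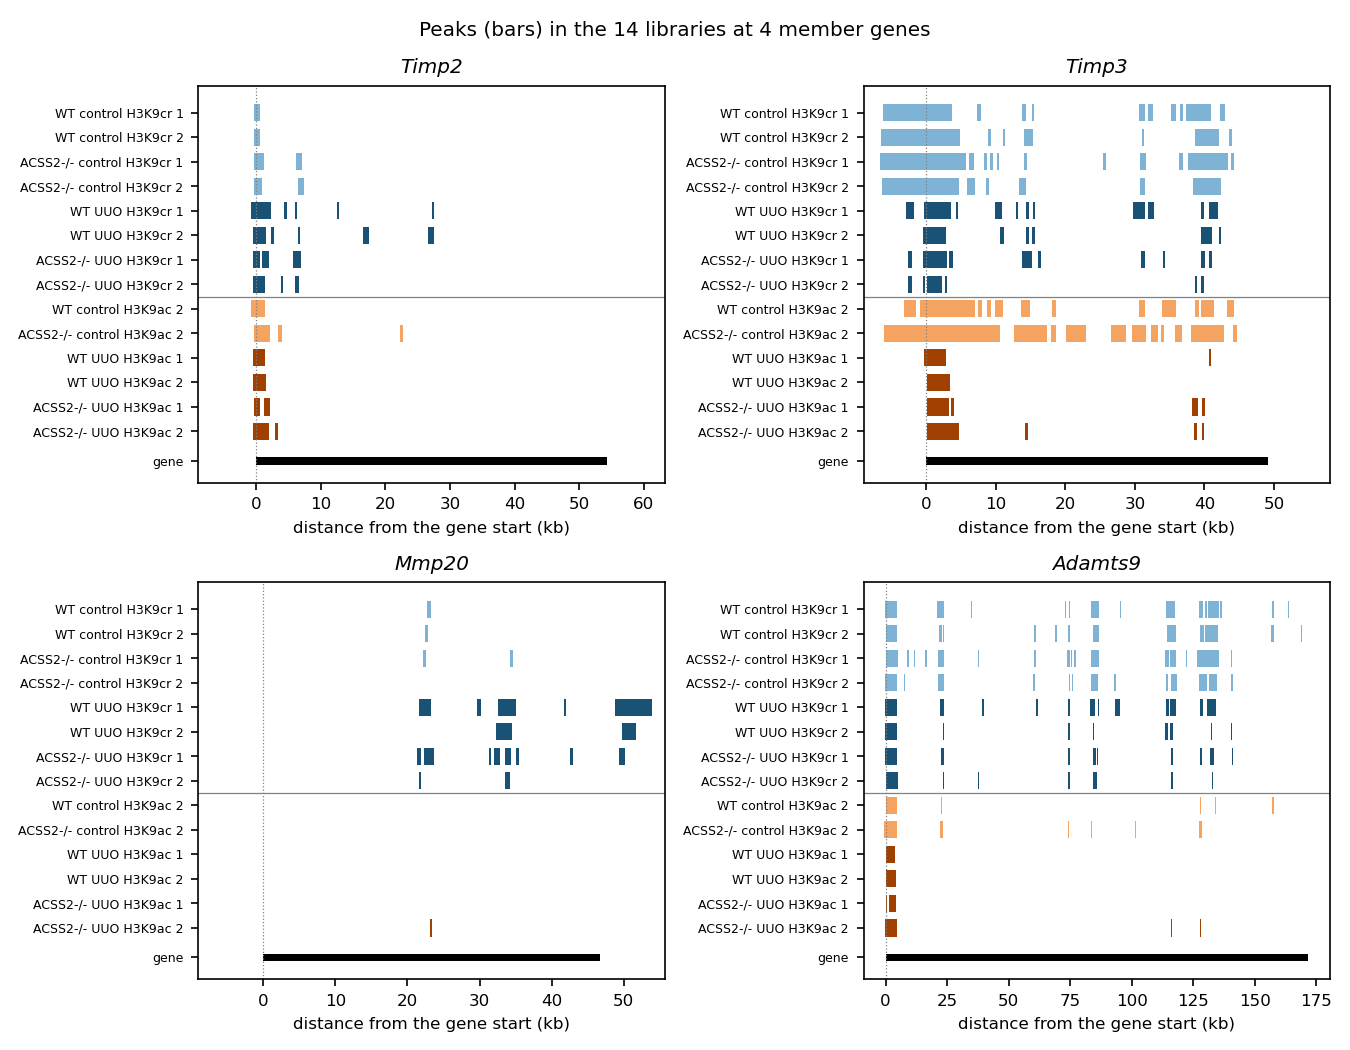
Peaks of 14 libraries (rows, H3K9cr above and H3K9ac below the line, light for control and dark for UUO) at Timp2, Timp3, Mmp20 and Adamts9, by distance in kb from the start of the gene (black bar). The start of Timp2 was covered in all 14 libraries, the longest Timp3 peaks were shorter in UUO (2056 to 3784 bp for H3K9cr) than in control (10030 to 12341 bp), and the peaks of Mmp20 lay away from its start.

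Within each genotype the same comparison had 2 libraries a side. In WT kidneys Timp2 and Adamts14 rose, 2 members against 1.14% of all genes, and no member fell, against 1.91% (limma, 7 members at an unadjusted p under 0.05 in either direction). The median difference was 0.29 over members and -0.01 over all genes. Timp2 differed by 1.79 on the log2 scale (SE 0.217, limma, adjusted p = 0.00853), with an adjusted p of 0.0750 without replicate 1 of WT control and of 0.0567 without replicate 2 of WT UUO. Adamts14, a procollagen N-propeptidase, had no H3K9cr peak in WT control and 1216 and 1041 bp in WT UUO, a difference of 1.70 (SE 0.341, limma, adjusted p = 0.0384). This call held in 6 of 14 fits without 1 library, the highest adjusted p being 0.185, and it was lost without any library of the WT UUO groups, of WT control H3K9cr or of ACSS2-/- UUO H3K9ac. Members with a peak in both WT UUO and in neither WT control library were Adamts14, Timp1 and Mmp27, against 2.91% of all genes. Mmp27 has peaks in H3K9cr UUO libraries alone and passed the filter only through them, so its place in this count is a description. Mmp9 alone was lost in this sense, against 1.17%.

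In ACSS2-/- kidneys Timp3 fell and Adamts18 was called lower with the limit given above, 2 members against 11.3% of all genes, and no member rose, against 0.603% (limma, 10 members at an unadjusted p under 0.05 in either direction). The median difference was -0.21 over members and -0.31 over all genes. Timp3 fell by 1.46 on the log2 scale (SE 0.335, limma, adjusted p = 0.0259), with adjusted p between 0.0671 and 0.177 without replicate 1 or 2 of ACSS2-/- control or replicate 2 of ACSS2-/- UUO. For Adamts18 the log2 difference was -1.13. With values scaled by the covered length, 3 members rose in ACSS2-/- kidneys and none fell, beside 308 and 290 of the 15268 genes (12 members at an unadjusted p under 0.05 in either direction), as the median of all genes moved from -0.31 to 0.25. No member gained a peak in both ACSS2-/- UUO libraries over none in control, against 1.09% of all genes, and Adamts18 and the proteoglycan-cleaving Adamts20 lost theirs, against 1.79%. For Adamts18 this loss is a description, by the limit given above. At Adamts20 the peaks measured 520 and 751 bp in ACSS2-/- control.

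Whether the effect of UUO on H3K9cr differed between genotypes was tested as an interaction, which no member passed, against 0% of all genes (limma, 7 of 36 members and 1471 of 15268 genes at an unadjusted p under 0.05). Timp2 differed by -1.36 (SE 0.306, adjusted p = 0.285). In this gene H3K9cr coverage was higher in ACSS2-/- than in WT control kidneys and lower in ACSS2-/- than in WT kidneys after UUO, with no overlap of the libraries in either case. Its difference between genotypes was 0.90 in control (SE 0.217, limma, adjusted p = 0.229) and -0.46 in UUO (SE 0.217, limma, adjusted p = 1). Neither passed after adjustment over all genes, which does not show that the genotypes are alike.

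Compared directly, ACSS2-/- and WT kidneys differed in H3K9cr at no member in control (0% of all genes, with 4 members and 1450 genes at an unadjusted p under 0.05) and at no member in UUO (0.00655% of all genes, with 3 members and 784 genes at an unadjusted p under 0.05). The median difference in control was 0.24 over members and 0.21 over all genes, and in UUO -0.30 and -0.10. In control kidneys 13 members had both ACSS2-/- libraries above both WT libraries, against 42.6% of all genes, and Adamts8, Adamts14 and Adamts18 had a peak in both of the former and in neither of the latter, against 0.996%. Adamts18 passed the filter only through these ACSS2-/- control libraries, so its place in both counts is a description. In UUO kidneys 12 members had both ACSS2-/- libraries below both WT libraries, against 24.5% of all genes. They were Timp1, Timp2, Mmp11, Mmp17, Mmp24, Mmp25, Mmp27, Adamts10, Adamts13, Adamts14, Adamts16 and Adamts17. Mmp27 passed the filter only through H3K9cr UUO libraries, so its place here is a description. Mmp14 and Adamts3 had both above, against 7.36% of all genes. In control kidneys Mmp17 and Mmp24 had both ACSS2-/- libraries below both WT libraries, against 3.60%. The whole lists moved in the same order, with 51.4 and 64.6 Mb covered in ACSS2-/- control against 41.7 and 44.8 Mb in WT control, and 29.4 and 39.7 Mb in ACSS2-/- UUO against 35.0 and 44.6 Mb in WT UUO, and the part of this in the members' values was not tested.

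H3K9ac after UUO was lower at 6 members, Timp3, Mmp17, Adamts14, Adamts5, Adamts13 and Mmp11, against 36.3% of all genes, and at no member higher, against 0.314% (limma, 10 members at an unadjusted p under 0.05 in either direction). The median difference was -0.47 over members and -0.53 over all genes tested. The proximal tubule markers had H3K9ac over 26.3 to 30.4 kb in control and 0.884 to 10.4 kb in UUO, and the leukocyte markers over 1.87 to 3.67 kb and 6.25 to 29.99 kb, and their part in the result was not tested. The spread was estimated over all 8 groups, since each control group had a single H3K9ac library. Timp3 had 19768 bp in WT control, 33880 bp in ACSS2-/- control, 3578 and 3297 bp in WT UUO and 4871 and 5722 bp in ACSS2-/- UUO. It fell by 2.47 on the log2 scale (SE 0.290, limma, adjusted p = 0.00162) and passed in all alternatives and without any single library. The longest single peak measured 7849 and 16658 bp in the control libraries and 3167 to 4633 bp in UUO.

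Mmp17, a membrane-type MMP held by a lipid anchor, had H3K9ac over 1892 bp in WT control, 1828 bp in ACSS2-/- control, 0 in both WT UUO libraries and 1120 and 1482 bp in ACSS2-/- UUO. It fell by 1.32 with UUO (SE 0.153, limma, adjusted p = 0.00162). Adamts14 had 772 and 1136 bp in the control libraries and no H3K9ac peak in any UUO library, and fell by 1.53 (SE 0.295, limma, adjusted p = 0.00756), while its H3K9cr rose in WT kidneys. The aggrecan-cleaving Adamts5 had 3635 and 4527 bp in control and 1352 to 3463 bp in UUO, and fell by 0.84 (SE 0.246, limma, adjusted p = 0.0298, or 0.0656 without replicate 2 of WT UUO and 0.0584 without replicate 1 of ACSS2-/- UUO). Adamts13, the protease of von Willebrand factor, had 2135 and 2738 bp in control and 1593 to 1883 bp in UUO, and fell by 0.42 (SE 0.126, limma, adjusted p = 0.0334, or 0.0505 and 0.0611 without replicate 1 or 2 of WT UUO). Its single region lay at the end away from its start site, where Cacfd1 has an end. Mmp11 (stromelysin-3) had 4767 and 4813 bp in control and 2630 to 4064 bp in UUO, and fell by 0.53 (SE 0.182, limma, adjusted p = 0.0480), a call that held in 2 of 13 alternative settings and in 3 of 12 fits without 1 library, with an adjusted p up to 0.106 (lost without any H3K9cr library of WT control or UUO, either H3K9ac library of WT UUO or replicate 1 of ACSS2-/- UUO). At Mmp11 a region of 1859 bp over the start (chr10:75931442-75933300) was present in all 14 libraries. Its other regions lay outside the gene, and Smarcb1 and Chchd10 have an end in the window. One of them (chr10:75934787-75939517) had H3K9ac in 2 control libraries and 1 UUO library. Scaling by the covered length of the library reversed Adamts13 to 0.36 and Mmp11 to 0.31, brought Adamts5 to -0.05 (adjusted p = 0.913) and left Timp3, Mmp17 and Adamts14 lower. The call of Adamts5 held in 6 of 12 alternative settings.

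The lists of H3K9ac after UUO were short throughout, and with that scaling 3 members were higher and 3 lower (729 and 728 of all genes), as the median of all genes moved from -0.53 to 0.14. Without replicate 2 of ACSS2-/- UUO, the list that stood apart, 14 members were lower, beside 7896 of the 15268 genes. The count was 4 without replicate 1 of WT UUO (3352 genes), 4 without replicate 1 of ACSS2-/- UUO (3621 genes) and 3 without replicate 2 of WT UUO (4917 genes). In 12 members all H3K9ac UUO libraries lay below both controls, against 47.0% of all genes, and Mmp9 and Adamts14 lost their peaks altogether, against 1.47%. Mmp9 had 578 and 512 bp of H3K9ac in the control libraries.

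**Figure D4:**
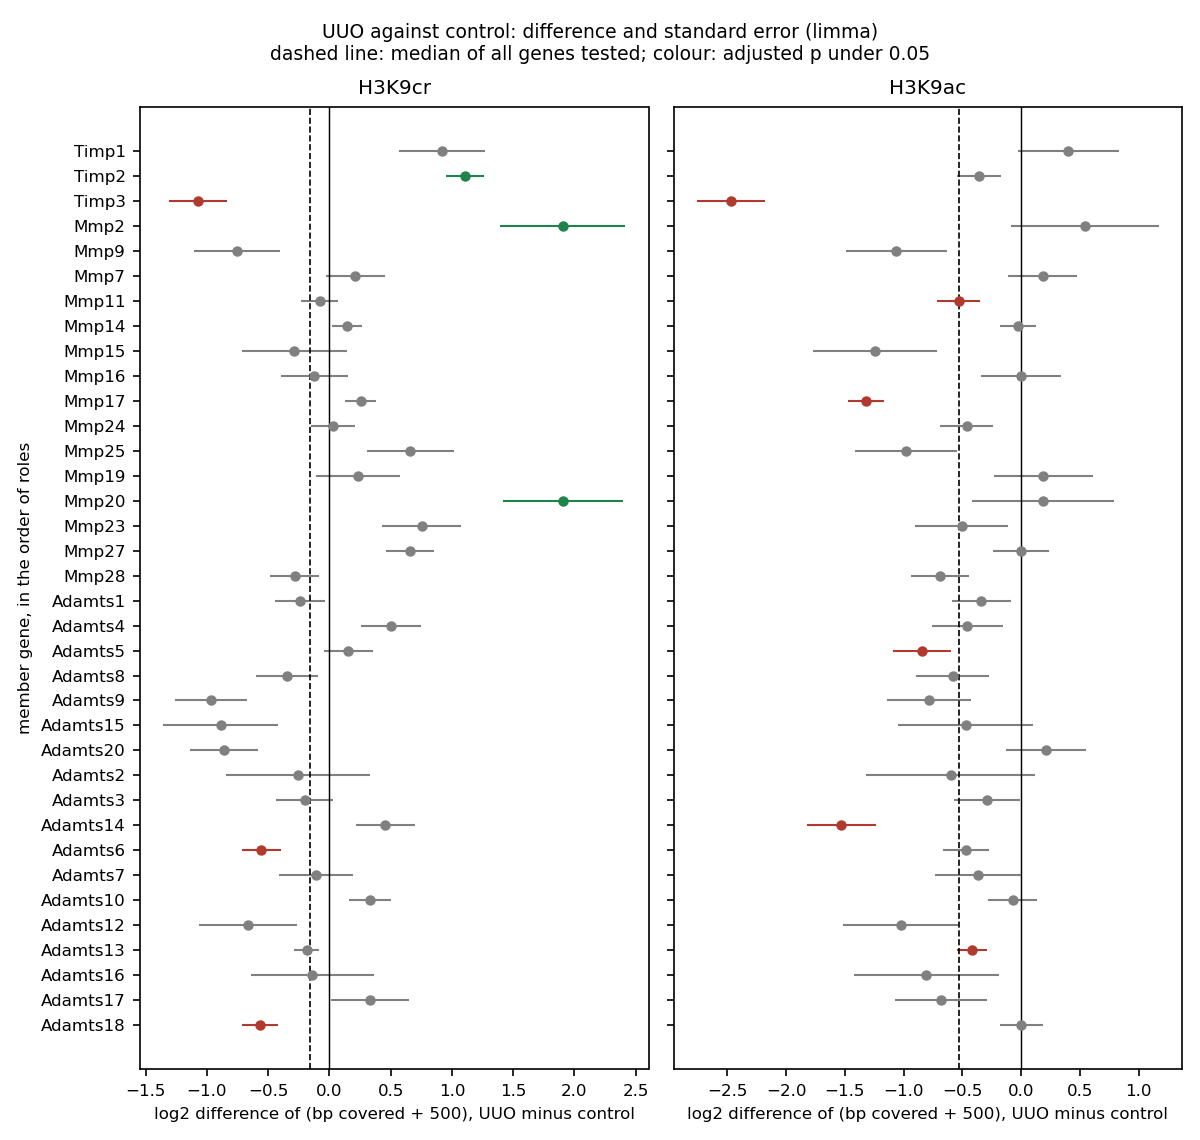
Difference between UUO and control (log2 of covered bp plus 500, points with 1 standard error) at the 36 members for H3K9cr (left) and H3K9ac (right), green where a member was called higher and red where it was called lower at an adjusted p under 0.05. The dashed lines mark the median of all genes tested, at -0.16 for H3K9cr and -0.53 for H3K9ac, and members such as Timp3 and Mmp9 lay below them for both marks.

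Between genotypes after UUO, H3K9ac was higher in ACSS2-/- kidneys at Mmp17 alone, 1 member against 0.0262% of all genes. The log2 difference was 1.84 (SE 0.176, limma, adjusted p = 0.0209), with no peak in either WT library and one in both ACSS2-/- libraries. It held in 3 of 14 fits without 1 library, the adjusted p reaching 0.133 without replicate 2 of ACSS2-/- UUO and being between 0.0574 and 0.0817 without any H3K9cr library or either WT UUO H3K9ac library. Mmp17 and Adamts8 were the members with a peak in both ACSS2-/- and in neither WT list, against 1.44% of all genes, and 6 members were so without replicate 1 of ACSS2-/- UUO. For H3K9cr, Mmp17 had 1668 and 1770 bp in WT UUO and 1454 and 1250 bp in ACSS2-/- UUO, the reverse order.

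Over all 4 groups H3K9cr covered more than H3K9ac at Adamts9, Mmp20 and Adamts6, 3 members against 12.0% of all genes, and less at none (limma, 7 members at an unadjusted p under 0.05 in either direction). The paper states that both marks were mapped in the same samples, but the fit did not pair them. Adamts9 had 9367 to 29828 bp of H3K9cr and 2998 to 9550 bp of H3K9ac, a log2 difference of 1.59 (SE 0.231, limma, adjusted p = 0.00352). The difference lay away from the ends of the gene, as it was 0.09 (adjusted p = 0.609) within 3 kb of them. Mmp20 differed by 1.77 (SE 0.388, limma, adjusted p = 0.0171), with a single H3K9ac peak of 343 bp in the 6 lists, and Adamts6 by 0.67 (SE 0.125, limma, adjusted p = 0.00959). Adamts9 and Adamts6 had every H3K9cr library above every H3K9ac library in each of the 4 groups, against 7.13% of all genes. With scaling by covered length 2 members were higher and 9 lower in H3K9cr, beside 1325 and 6409 of the 15268 genes, as the median of all genes moved from 0.06 to -0.29.

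The effect of UUO differed between the marks at Mmp17, 1 member against 0.0589% of all genes. H3K9cr at Mmp17 was 1367 and 1389 bp in WT control, 1093 and 979 bp in ACSS2-/- control, 1668 and 1770 bp in WT UUO and 1454 and 1250 bp in ACSS2-/- UUO, against the loss of H3K9ac in WT UUO given above. The difference of the effects was 1.57 (SE 0.197, limma, adjusted p = 0.0371). It held in 4 of 12 fits without 1 library, with adjusted p up to 0.109 without either WT control or WT UUO library of H3K9cr, replicate 1 of ACSS2-/- UUO of either mark, or either WT UUO library of H3K9ac. For Timp2, which rose in H3K9cr, H3K9ac was 2265 and 3722 bp in control and 1776 to 3132 bp in UUO, and the difference of the effects was 1.46 (SE 0.242, limma, adjusted p = 0.0774).

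A list of 23 genes that act beside these proteases, such as the plasminogen activators, cathepsins, ADAM sheddases and ADAMTS-like proteins, had 21 genes in the test. With UUO, H3K9cr rose at none of them, against 2.34% of all genes, and fell at 1 of 21, against 12.7%. This was Bsg, an inducer of MMP synthesis (log2 difference -0.59, limma, adjusted p = 0.0499). H3K9ac rose at none, against 0.314% of all genes, and fell at 2 of 21, against 36.3%. These were Bsg (-0.67, limma, adjusted p = 0.0370) and Adamtsl2 (-1.42, limma, adjusted p = 0.0153). At an unadjusted p under 0.05 there were 4 and 8 of them. The medians were -0.16 for H3K9cr and -0.38 for H3K9ac. H3K9cr exceeded H3K9ac at Plaur, the urokinase receptor, by 1.09 on the log2 scale (limma, adjusted p = 0.0314), at Adamtsl1 by 1.68 (adjusted p = 0.0303) and at Adamtsl2 by 0.78 (adjusted p = 0.0419). Of all genes tested, 12.0% were called higher in this comparison. In the other comparisons, those within or between genotypes and that of the UUO effect between marks, none passed (1 to 4 at an unadjusted p under 0.05).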

How the data were processed

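The authors crosslinked kidney tissue, immunoprecipitated it with antibodies to H3K9cr or H3K9ac, aligned read pairs with Bowtie2, removed organelle, poorly mapped and duplicate reads, and called peaks in each library with MACS2. The submitters' processing notes name mm10, Bowtie2, MACS2 and ChIPseeker, with versions not given in the sources used here. The deposited lists hold the start and end of each peak and no score, height or strand. Input libraries were not analysed here.

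Genes were taken from RefSeq (GRCm38.p6, the assembly of mm10), and 14 members have no strand there, so that locus windows were symmetric. Covered bp and peaks were counted with Python 3.11.15 and numpy 2.4.6, and 0 of 1288 values differed from bedtools 2.31.1. The test was limma 3.58.1 (R 4.3.3, trended moderated test) on log2(bp + 500), 1 fit of 14 libraries in 8 groups with 6 residual degrees of freedom, 10 contrasts, genes with a peak in at least 2 libraries, and Benjamini-Hochberg adjustment over 15268 protein-coding genes. Both scripts were tested on simulated data.

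Named were the members called in any contrast, Timp1 to Timp4, Mmp2, Mmp7, Mmp9, Mmp14, members whose H3K9cr libraries did not overlap between UUO and control, and members without a peak. The remaining members named were added after their values were seen. Members and lists were chosen with earlier results of these data known. Alternatives were other windows (ends, body, 1 kb of the start site), a pseudocount of 100 bp, no filter, scaling by covered length, the longest 15988 peaks of each list, numbers of peaks, all annotated genes, an overlap of 200 bp, a replicate block, Y chromosome peaks as a covariate and leaving out each library. Leaving out bases within 1 kb of other genes' ends and a block by the mouse number in the peak names were added after seeing the data. Peak depth was not available, so no interval for counting error was computed. The result for 1 gene of the related list is not reported here.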

Additional observations from a re-analysis of the deposited data

Results flagged for a closer look

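The response of Mmp17 to UUO differed between the marks by a test of the difference itself (limma interaction, 1.57 on the log2 scale, SE 0.197, adjusted p = 0.0371). H3K9cr coverage averaged 1207 ± 203 bp in control and 1536 ± 231 bp in UUO (SD, n = 4 each), and H3K9ac 1860 ± 45.3 bp (n = 2) and 651 ± 766 bp (n = 4), the last with 0 in both WT and a peak in both ACSS2-/- libraries. The call held in 4 of 12 fits without 1 library and in 7 of 12 other settings. Its adjusted p (limma) was 0.131 with the replicate block and 0.207 with a block by the mouse number in the peak names. By that number replicate 1 of H3K9cr and replicate 2 of H3K9ac in ACSS2-/- UUO are both mouse 3, with 14 and 13 Y chromosome peaks, and the other replicates are both mouse 2, with 0 such peaks in either. The paper states that both marks were mapped in the same samples, but the labels do not say which libraries share an animal. The main fit took the libraries of both marks as independent. Each block was fitted as 1 factor over all groups, with the same number in different groups as the same block. It therefore does not model animals shared by the marks within a group. Sharing of animals was not tested, and neither was the cause of the difference.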

How the results depend on the processing

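Read depth is unknown and each control group has 1 H3K9ac library, which limits every H3K9ac comparison with control. Of 257 values of called members under other settings, 178 kept their direction and side of the threshold, 77 kept the direction only, and 2 reversed with scaling by covered length, Adamts13 (0.36) and Mmp11 (0.31) in H3K9ac after UUO. Without 1 library these were 197, 77 and 0 of 274. The causes were not tested.

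Counts of members called moved as follows, here and in the paragraphs below. The calls over all genes at the same settings are not set beside them, so no count here is a result about the members. In the main fit 2.34% of all genes were called higher and 12.7% lower in H3K9cr after UUO. Within 1 kb of the start site, where fewer genes were tested, they were 1 for UUO in H3K9cr, 0 in WT and 0 in ACSS2-/-, 2 for UUO in H3K9ac, 0 between genotypes in H3K9ac, 0 between marks and 0 for the interaction with mark. Within 3 kb of both ends they were 3 for UUO in H3K9cr, 1 in ACSS2-/-, 1 between marks and 0 for the interaction with mark, with 1 peak gained and 0 lost in ACSS2-/-. Over the gene body 1 was called in WT. Without the filter the counts were 1 in WT, 1 between genotypes in control, 0 between genotypes in H3K9ac, 1 for the interaction with genotype and 3 with mark. With the longest peaks they were 3 between genotypes in control, 0 in H3K9ac, 2 for the interaction with genotype and 3 with mark, with 0 peaks lost in WT, 3 gained and 0 lost in ACSS2-/- and 1 lost in H3K9ac. With numbers of peaks they were 2 for UUO in H3K9cr, 1 in WT, 2 between genotypes in control and 1 in UUO, 3 for UUO in H3K9ac, 2 for the interaction with genotype and 2 with mark. Scaling gave 11 between marks. Y chromosome peaks as a covariate gave 3 for UUO in H3K9ac and 0 for the interaction with mark, and all annotated genes 1 between genotypes in control and 2 for the latter. Without bases near other genes' ends 1 was called between genotypes in control and 6 between marks.

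The correlations of same-numbered libraries were between -0.251 and 0.143 over 15 pairs of groups. The lowest was that of H3K9cr and H3K9ac in ACSS2-/- UUO, where the mouse numbers in the peak names are crossed. Such correlations cannot show whether libraries share an animal. With the replicate block 3 members were called for UUO in H3K9cr, 3 in H3K9ac and 0 for the interaction with mark. With a block by the mouse number in the peak names, which differs from the label in 4 lists, 1 was called in WT, 6 in ACSS2-/-, 13 for UUO in H3K9ac, 0 between genotypes in H3K9ac and 0 for the interaction with mark. Beside the count for UUO in H3K9ac, the main fit had called 36.3% of all genes lower.

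Leaving out 1 library gave 1 to 8 calls for UUO in H3K9cr, 0 to 3 in WT, 1 to 3 in ACSS2-/-, 0 to 1 between genotypes in control, 0 to 0 in UUO, 3 to 14 for UUO in H3K9ac, 0 to 1 between genotypes in H3K9ac, 3 to 6 between marks, 0 to 0 for the interaction with genotype and 0 to 5 with mark. Peaks gained and lost numbered 0 to 1 and 0 to 1 in H3K9cr, 3 to 5 and 1 to 2 in WT, 0 to 3 and 2 to 4 in ACSS2-/-, and 0 to 0 and 2 to 3 in H3K9ac. Peaks gained in ACSS2-/- over WT numbered 3 to 4 for H3K9cr in control and 2 to 6 for H3K9ac in UUO.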
